A study of Mus musculus with 6 samples.

Results

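The genes described here are 39 interferon-stimulated genes of the mouse, a list by name of genes that type I interferon or interferon gamma is known to induce. All 39 were found among the 43274 genes of the normalized count table by matching Ensembl identifiers to gene symbols. They were measured by RNA-seq in bulge SCs, the stem cells of the hair follicle, which had been sorted by FACS from the epidermis at postnatal day 21 for CD34 and for high α6 integrin, in 3 control and 3 ILK-K5 libraries. Control mice carried 1 floxed and 1 intact allele of Ilk, which encodes integrin-linked kinase (labelled ILK +/-), and ILK-K5 mice carried 2 floxed alleles (labelled ILK -/-). Both genotypes carried the K5-Cre transgene, and the mice were littermates on a C57Bl6-129/Sv background. The keratin 5 promoter that drives Cre is a promoter of the basal epidermis and follicle epithelium, not of leukocytes or fibroblasts. The labels do not say whether each library came from 1 mouse or from a pool, so the p-values below measure the spread between these libraries, which may be technical.

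Interferons are secreted proteins that cells release on sensing foreign or misplaced nucleic acid, and in the case of interferon gamma on activation of T and NK cells. Their receptors signal through Jak kinases to Stat factors, which bind DNA either with Irf9 at the interferon-stimulated response element or, as dimers, at the gamma-activated site. The genes switched on in this way encode sensors of viral RNA and DNA, enzymes and GTPases that block virus growth, and factors that prolong or end the response. In skin both keratinocytes and resident leukocytes respond to interferon.

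Between 8228019 and 11969072 reads per library were assigned to genes, and 1 read was worth 0.726 to 1.52 normalized counts. Mitochondrial genes took 11.5% to 27.6% of the reads. Ilk itself had 10.6 to 38.5 normalized counts in control and 14.8 to 30.9 in ILK-K5 libraries, but 89.7% of its exon bases also lie in exons of Taf10 and Rrp8 on the opposite strand, so that its count did not check the genotypes. The bulge marker Krt15 was abundant in every library, at 28999 to 97406 normalized counts in control and 10084 to 37668 in ILK-K5. Cd34, whose protein was part of the sort, had 947 to 2009 normalized counts in control and 296 to 559.9 in ILK-K5 libraries and was lower in the latter (log2 fold change -1.90, adjusted p = 0.0239). Transcripts of leukocytes were far more abundant in ILK-K5 libraries, as in Ptprc, the gene of CD45, with 28.0, 22.8 and 50.8 normalized counts in control libraries 1, 2 and 3 and 1431, 1111 and 1010.1 in ILK-K5 libraries 1, 2 and 3. In such bulk samples a difference in the number of cells of a type cannot be told apart from a difference in RNA per cell.

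The interferon-stimulated genes were on the whole at higher levels in ILK-K5 libraries, most clearly Trim30a, Oasl2, Oas1a, Gbp3, Ifit1 and Parp14. Summed over the 39 genes, control libraries 1, 2 and 3 held 2058, 2409 and 2432 normalized counts and ILK-K5 libraries 1, 2 and 3 held 5462, 5069 and 4584. The 2 genotypes did not overlap in this sum. Single genes weigh much in it. Trim25 alone gave 749.6 to 826 in control and 930.1 to 1124 in ILK-K5 libraries. Ifi44 gave 1025 in ILK-K5 library 1 but 39.3 and 32.1 in libraries 2 and 3. A gene was tested where its mean over the 6 libraries was at least 10 normalized counts, and it was called where limma on log2(normalized count + 1) gave an adjusted p of at most 0.05. Of the 39 genes 34 were tested, 6 were called higher in ILK-K5 (17.6%) and 0 were called lower, while 28 were not called. Over all 16368 genes tested, 2.93% were called higher and 0.599% lower. At an unadjusted p below 0.05 there were 22 of the 34, each of them higher in ILK-K5, where 8.18% of all genes tested were higher at that limit. edgeR and DESeq2 on the same genes called 5 and 12 higher and 0 lower, where they called 2.58% and 3.81% of all genes higher. The log2 fold change was above 0 in 33 of the 34, with Cmpk2 the exception, against 50.5% of all genes tested, and its median was 1.50 against 0.0054. Placing Ifit3, whose control libraries held at most 3 reads each, at its lower bound left this median at 1.50. Ifit3 lay above the median either way, so this placing could not have moved the median. In 23 of the 34 every ILK-K5 library was above every control library (67.6%), a pattern seen in 10.9% of all genes tested.

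These counts carry the effect of the filter. Of the 34 genes tested, 11 had a control mean below 10 normalized counts and passed only through their ILK-K5 level, and 5 of the 6 called genes were among them. The other 23 had a control mean of at least 10. Parp14 was the 1 called gene of these 23, whose median log2 fold change was 1.08, and among all 15646 genes with such a control mean 1.43% were called higher and the median was -0.023. The plot of values by library shows the level of each of the 39 genes, including Oas2, Oasl1, Mx1, Dhx58 and Iigp1, which were below the filter.

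**Figure D1:**
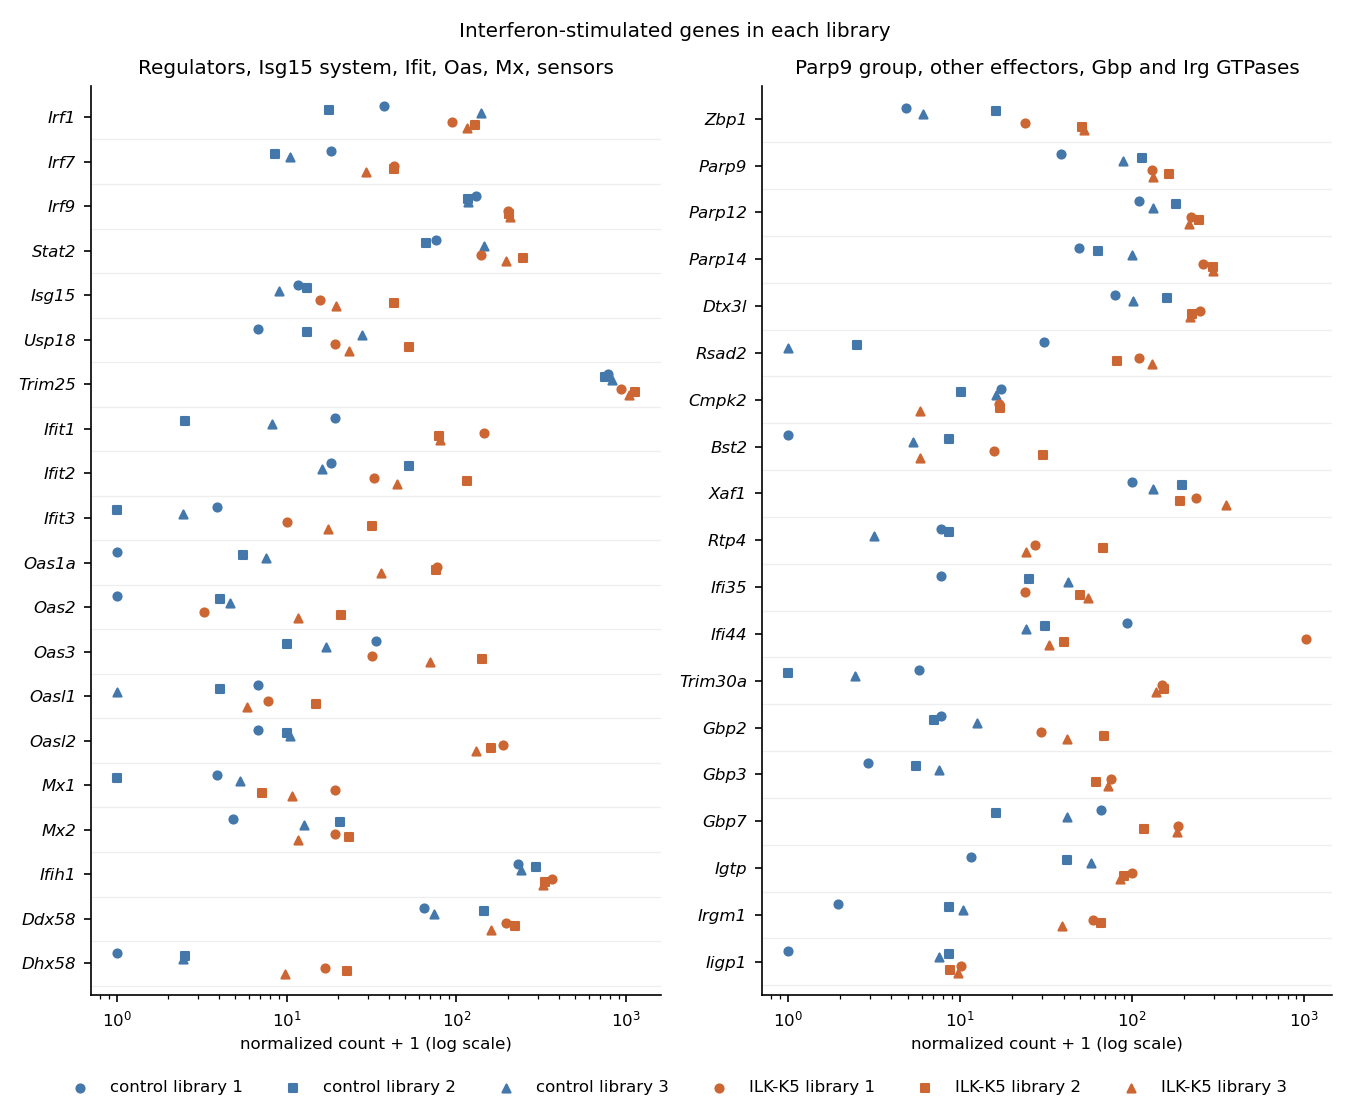
Normalized count + 1 on a log axis for each of the 39 interferon-stimulated genes, grouped by role, with control libraries in blue, ILK-K5 libraries in orange and the marker shape giving the library number. Trim30a, Oasl2, Gbp3 and Parp14 show the clearest gap between genotypes, while Cmpk2 and Mx2 overlap and Ifi44 is high in ILK-K5 library 1.

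Promoters of 4 called genes are shown because they hold the letters of the interferon-stimulated response element core, GAAANNGAAA, close to the start of transcription. They are RefSeq sequences of build GRCm38.p6 that run from 250 bases before to 50 bases after the start, 5′ to 3′ on the strand of the gene, with matches on either strand in capitals. Trim30a lies at chr7:104465144-104465443 on the minus strand, Oas1a at chr5:120907476-120907775 on the minus strand, Gbp3 at chr3:142559794-142560093 on the plus strand and Ifit1 at chr19:34640639-34640938 on the plus strand.
Trim30a: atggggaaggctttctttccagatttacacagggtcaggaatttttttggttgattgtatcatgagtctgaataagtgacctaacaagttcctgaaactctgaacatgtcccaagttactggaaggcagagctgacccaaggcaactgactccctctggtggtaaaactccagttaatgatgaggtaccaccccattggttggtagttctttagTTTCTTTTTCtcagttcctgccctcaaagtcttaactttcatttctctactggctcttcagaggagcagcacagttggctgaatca
Oas1a: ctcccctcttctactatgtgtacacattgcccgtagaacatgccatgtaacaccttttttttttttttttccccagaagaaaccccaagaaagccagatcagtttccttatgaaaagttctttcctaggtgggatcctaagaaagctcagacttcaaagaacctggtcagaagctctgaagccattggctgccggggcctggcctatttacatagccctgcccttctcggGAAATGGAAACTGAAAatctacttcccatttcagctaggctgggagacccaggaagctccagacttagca
Gbp3: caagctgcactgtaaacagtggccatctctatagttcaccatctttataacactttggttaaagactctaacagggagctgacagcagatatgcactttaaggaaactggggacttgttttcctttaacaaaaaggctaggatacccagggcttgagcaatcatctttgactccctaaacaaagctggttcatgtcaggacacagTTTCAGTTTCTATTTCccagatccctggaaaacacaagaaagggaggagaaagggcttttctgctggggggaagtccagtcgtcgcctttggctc
Ifit1: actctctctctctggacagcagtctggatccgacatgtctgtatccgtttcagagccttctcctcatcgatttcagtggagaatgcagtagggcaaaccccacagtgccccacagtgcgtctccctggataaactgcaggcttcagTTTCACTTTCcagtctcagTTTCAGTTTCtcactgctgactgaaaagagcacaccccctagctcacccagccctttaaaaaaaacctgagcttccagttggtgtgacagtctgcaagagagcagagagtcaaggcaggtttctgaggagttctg
The match in Trim30a begins 36 bases before the start. Oas1a has a pair of overlapping matches that begin 20 and 14 bases before it, and Gbp3 an overlapping pair at 45 and 39 bases. In Ifit1 the matches are separate, at 104 and 85 bases before the start. Of the 2 RefSeq promoters of Gbp3 only the 1 shown holds the motif, whereas both of the 2 promoters of Trim30a hold it. A promoter was in the table for 29 of the 39 genes, and 16 of them held the motif (55.2%), against 1079 of all 27025 genes (3.99%). The motif was in 4 of the 5 called genes with a promoter, all but Oasl2, and in 12 of the other 24. The letters of the gamma-activated site, TTCNNNGAA, were in 7 of the 29 (24.1%), among them Oas1a, Gbp7 and Igtp, against 2582 of all genes (9.55%). Genes with no promoter in the table were Usp18, Oas2, Mx1, Mx2, Dhx58, Zbp1, Parp9, Parp14, Rtp4 and Iigp1. A match is a description of these letters and shows neither binding nor use.

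Transcripts of the interferons themselves were at or near 0. The list of ligands held Ifna1, Ifna2, Ifna4, Ifna5, Ifnb1, Ifne, Ifnk, Ifng, Ifnl2 and Ifnl3, and all 10 were below the filter. Ifna1, Ifna2, Ifna5, Ifnb1 and Ifne had 0 reads in all 6 libraries, and a count of 0 allows up to 3 reads per library, or 2.18 to 4.56 normalized counts. Ifng, the product of T and NK cells, had 1.93, 0 and 0 normalized counts in control libraries 1, 2 and 3 and 0, 0.771 and 0 in the ILK-K5 libraries. The keratinocyte interferon Ifnk reached 6.53 in control library 3 and 1.14 to 2.31 in ILK-K5 libraries. The largest value of any ligand was 9.12 for Ifnl2 in control library 2. Whether interferon was made outside the sorted cells was not measured.

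The receptors were expressed in all libraries. Ifnar1, a chain of the type I receptor, had 609.8, 408 and 309 normalized counts in control and 1209, 675 and 764 in ILK-K5 libraries 1, 2 and 3 (log2 fold change 1.0, adjusted p = 0.214 by limma). Its partner Ifnar2 had 19.3, 18.2 and 75.5 in control and 66.0, 217 and 123 in ILK-K5 libraries (log2 fold change 1.97, adjusted p = 0.193). Ifnar1 was higher in every ILK-K5 library, whereas Ifnar2 overlapped between genotypes. The chains of the interferon gamma receptor, Ifngr1 and Ifngr2, had 63.7 to 346 and 26.0 to 129.9 in control and 364 to 462 and 169.6 to 278 in ILK-K5 libraries, with log2 fold changes of 1.35 and 1.68. Ifnlr1 and Il10rb, which form the receptor of the lambda interferons, had log2 fold changes of 1.17 and 0.75. None of the 6 receptor genes passed by limma, edgeR or DESeq2, though 5 had an unadjusted p below 0.05 and all 6 were above 0.

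Of the kinases that carry the signal, Jak1 had 1177 to 1507 normalized counts in control and 1253 to 1542 in ILK-K5 libraries (log2 fold change -0.017, whose sign turned with TMM scaling and quantile normalization). Jak2 had 325 to 432 in control and 583 to 709 in ILK-K5 libraries (log2 fold change 0.77, adjusted p = 0.195 by limma) and Tyk2 36.5 to 82.0 and 104 to 131 (log2 fold change 1.27, adjusted p = 0.202). None of these 3 kinases passed by limma, edgeR or DESeq2, and 2 had an unadjusted p below 0.05.

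The signalling members of the list, Irf1, Irf7, Irf9 and Stat2, were expressed at low to moderate levels and none was called. Irf9, the DNA-binding partner of Stat2, had 129, 116 and 116 normalized counts in control libraries 1, 2 and 3 and 199, 203 and 205 in ILK-K5 libraries 1, 2 and 3. The 3 values within each genotype were close together and all ILK-K5 libraries were higher, with a log2 fold change of 0.75 ± 0.29 SE (the SE is that of the fit, adjusted p = 0.289 by limma). Stat2 had 75.3, 65.4 and 144 in control and 139, 245 and 195 in ILK-K5 libraries. Control library 3 lay above ILK-K5 library 1, and the log2 fold change was 1.07 (adjusted p = 0.284). Irf7, which amplifies the production of type I interferon, had 17.4, 7.60 and 9.43 in control and 42.1, 41.6 and 28.2 in ILK-K5 libraries. These values did not overlap, with a log2 fold change of 1.68 and an adjusted p of 0.212. Irf1, an early target of interferon gamma, had 36.7, 16.7 and 139 in control and 93.4, 128 and 114 in ILK-K5 libraries. Its control library 3 was above all ILK-K5 libraries, and the log2 fold change was 1.30 (adjusted p = 0.533). Of these 4 genes 3 had an unadjusted p below 0.05, and edgeR and DESeq2 called 0.

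In the Isg15 system the modifier and its protease were low and the ligase was the most abundant gene of the whole list. Isg15, a ubiquitin-like protein that is joined to other proteins, had 10.6, 12.2 and 7.98 normalized counts in control and 14.8, 41.6 and 18.5 in ILK-K5 libraries 1, 2 and 3 (log2 fold change 1.09, adjusted p = 0.613 by limma). Usp18, which removes Isg15 and restrains the type I receptor, had 5.79, 12.2 and 26.8 in control and 18.2, 51.7 and 22.4 in ILK-K5 libraries (log2 fold change 1.08, adjusted p = 0.685). In both genes ILK-K5 library 2 stood highest, and Usp18 overlapped between genotypes. Trim25, a ubiquitin ligase of the RNA sensor encoded by Ddx58, had 782, 749.6 and 826 in control and 930.1, 1124 and 1033 in ILK-K5 libraries. The ILK-K5 values were all higher, by a log2 fold change of 0.38 with an adjusted p of 0.638. None of the 3 passed by limma, edgeR or DESeq2, and 0 of them had an unadjusted p below 0.05.

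Among the Ifit genes, whose proteins bind viral RNA, Ifit1 was called higher. It had 18.3, 1.52 and 7.26 normalized counts in control libraries 1, 2 and 3 and 143, 77.9 and 78.9 in ILK-K5 libraries 1, 2 and 3. Every ILK-K5 library was above every control library, by a log2 fold change of 3.71 ± 0.76 SE (adjusted p = 0.0298, limma). The gene spans positions 34640871 to 34650009 of GRCm38 on the plus strand, and 7.13% of the 50-base words of its transcripts also occur in Ifit1bl2 or Ifit1bl1. Ifit2 ranged over 15.2 to 51.7 in control and 31.9 to 114 in ILK-K5 libraries, which overlapped (log2 fold change 1.14, adjusted p = 0.605). Ifit3 had 0 to 2.89 in control, at most 3 reads per library, and 9.11 to 30.9 in ILK-K5 libraries, a mean at least 5.87-fold higher when each control library is set to the floor of 3 reads (adjusted p = 0.143). With 51.2% of its words shared with Ifit3b, the count of Ifit3 is uncertain.

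The Oas family, enzymes that on contact with viral RNA make the messenger that activates RNase L, held 2 called genes. Oasl2, an Oas-like member, had 5.79, 9.12 and 9.43 normalized counts in control libraries 1, 2 and 3 and 188, 158 and 129 in ILK-K5 libraries 1, 2 and 3. The gap between genotypes was wide against the spread within them, with a log2 fold change of 4.14 ± 0.46 SE (adjusted p = 0.00124, limma), and a ratio of the mean normalized counts of 19.5. Oas1a had 0, 4.56 and 6.53 in control and 76.3, 74.8 and 35.1 in ILK-K5 libraries. All ILK-K5 libraries were higher, library 3 less so than the other two (log2 fold change 4.10, standard error 0.87, adjusted p = 0.0346). However, 57.6% of the 50-base words of Oas1a occur also in Oas1g, whose counts were alike at 2.89, 3.04 and 13.8 and 71.7, 67.1 and 27.3 and did not pass (adjusted p = 0.0611), so the reads may have been split between these copies. Oasl2 lies on chromosome 5 at positions 114896936 to 114912234 on the plus strand and Oas1a on the same chromosome at 120896256 to 120907521 on the minus strand. Oas3 overlapped between genotypes, at 9.12 to 32.8 in control and 30.7 to 139.6 in ILK-K5 libraries (log2 fold change 1.92, adjusted p = 0.244). Oas2 and Oasl1 were below the filter, with at most 20.1 and 13.9 normalized counts in any library.

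The Mx genes, of a family of dynamin-like GTPases that trap viral particles, were near the lower limit. Mx2 is annotated as a polymorphic pseudogene, and whether its transcript encodes a working protein in these mice was not tested. Mx1 was below the filter, with 0 to 4.35 normalized counts in control and 6.17 to 18.2 in ILK-K5 libraries. Mx2 had 3.86 to 19.8 in control and 10.7 to 22.4 in ILK-K5 libraries, which overlapped (log2 fold change 0.68, adjusted p = 0.843 by limma).

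The sensors of nucleic acid included abundant genes with small differences. Ifih1, which encodes MDA5, a sensor of long viral RNA, had 231, 293 and 239 normalized counts in control libraries 1, 2 and 3 and 363, 333 and 321 in ILK-K5 libraries 1, 2 and 3. The genotypes did not overlap, but the log2 fold change was only 0.42 (standard error 0.26, adjusted p = 0.655, limma). Ddx58, the gene of RIG-I, had 63.7 to 144 in control and 158 to 219.8 in ILK-K5 libraries (log2 fold change 1.11, adjusted p = 0.240). Zbp1, a sensor of Z-form nucleic acid, had 3.86 to 15.2 and 22.8 to 51.6 (log2 fold change 2.35, adjusted p = 0.131). Dhx58, the regulator LGP2, was below the filter, with at most 3 reads in each control library and 8.77 to 21.6 normalized counts in ILK-K5 libraries, a mean at least 4.81-fold higher. Of the 3 tested, 0 passed by limma or edgeR and DESeq2 called 1, Zbp1, and 2 had an unadjusted p below 0.05.

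The ADP-ribosyltransferases Parp9, Parp12 and Parp14 and the ubiquitin ligase Dtx3l, partner of Parp9, were mostly at moderate levels, and 1 of the 4 was called. Parp14 had 48.2, 62.3 and 98.7 normalized counts in control libraries 1, 2 and 3 and 258, 293 and 296 in ILK-K5 libraries 1, 2 and 3. It rose by a log2 fold change of 2.06 ± 0.35 SE (adjusted p = 0.0128, limma), and the ILK-K5 libraries differed little among themselves. The gene lies on chromosome 16 at positions 35832874 to 35871544 on the minus strand. Parp12 had 108, 179 and 132 in control and 219, 245 and 212 in ILK-K5 libraries (log2 fold change 0.71, adjusted p = 0.395). Dtx3l had 78.1, 159.7 and 101 in control and 246, 222 and 217 in ILK-K5 libraries (log2 fold change 1.07, adjusted p = 0.183). In both genes every ILK-K5 library was above every control library, and so it was in Parp9, with 37.6 to 114 in control and 129.8 to 162 in ILK-K5 libraries (log2 fold change 0.95, adjusted p = 0.462). Parp9 and Dtx3l lie head to head and share 9.40% and 8.0% of their exon bases on opposite strands, which an unstranded library cannot tell apart.

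Among the other antiviral effectors 1 of 8 was called. Trim30a, a member of the TRIM family of ubiquitin ligases that restrains Toll-like receptor signalling, had 4.82, 0 and 1.45 normalized counts in control libraries 1, 2 and 3 and 149, 152 and 137 in ILK-K5 libraries 1, 2 and 3. Almost all of its reads came from ILK-K5 libraries, which lay close together, and its log2 fold change of 5.92 was the largest of the 34 genes tested (standard error 0.72, adjusted p = 0.00208, limma). The gene spans positions 104409025 to 104465193 of chromosome 7 on the minus strand, and 5.98% of its words are shared with Trim30d. Xaf1, which binds an inhibitor of apoptosis, was the most abundant of the group per length in control, with 98.4, 195 and 131 normalized counts in control and 235, 189 and 353 in ILK-K5 libraries. Control library 2 lay above ILK-K5 library 2 (log2 fold change 0.87, adjusted p = 0.375).

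Some of the other effectors are named here after their values were seen. Rsad2, which encodes viperin, had 29.9, 1.52 and 0 normalized counts in control and 109, 81.0 and 129.6 in ILK-K5 libraries, and its log2 fold change of 4.63 had an adjusted p of 0.0593 by limma. Cmpk2, its neighbour on chromosome 12, had 16.4, 9.12 and 15.2 in control and 15.9, 16.2 and 4.87 in ILK-K5 libraries and was the 1 gene with a value below 0 (log2 fold change -0.25, adjusted p = 0.951). The 2 neighbours differed in sign here, but neither was called and the sign of Cmpk2 turned without ILK-K5 library 3. Ifi44 had 92.6, 30.4 and 23.2 in control and 1025, 39.3 and 32.1 in ILK-K5 libraries. Only ILK-K5 library 1 stood above the control range, and the log2 fold change of 1.42 (adjusted p = 0.777) was -0.18 without that library. The remaining 3, Bst2, Rtp4 and Ifi35, had log2 fold changes of 1.98, 2.58 and 0.99 with adjusted p-values of 0.560, 0.109 and 0.723, and their libraries separated in Rtp4 only. Overlapping exons on the opposite strand cover 16.8% of the exon bases of Ifi35, and 11.6% of the words of Rtp4 occur also in Gm45338.

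The guanylate-binding proteins (Gbp) and immunity-related GTPases (Igtp, Irgm1, Iigp1), which attack the vacuoles of intracellular pathogens and respond mainly to interferon gamma, had higher values in ILK-K5 throughout, and 1 of the 5 tested was called. Gbp3 had 1.93, 4.56 and 6.53 normalized counts in control libraries 1, 2 and 3 and 74.0, 60.9 and 71.1 in ILK-K5 libraries 1, 2 and 3. It rose by a log2 fold change of 3.80 ± 0.60 SE (adjusted p = 0.00821, limma), with the ILK-K5 libraries close together. The gene lies on chromosome 3 at positions 142560026 to 142573209 on the plus strand. Igtp had 10.6, 41.1 and 56.6 in control and 99.0, 88.7 and 83.8 in ILK-K5 libraries (log2 fold change 1.59, adjusted p = 0.286), and control libraries varied more than ILK-K5 libraries. The other 3 tested were just outside the limit, Irgm1 at an adjusted p of 0.0534 (log2 fold change 3.25), Gbp7 at 0.0691 (2.16) and Gbp2 at 0.0800 (2.31), and DESeq2 called all 3. In all 5 genes tested every ILK-K5 library was above every control library. Iigp1 was below the filter, with 0 to 7.60 in control and 7.71 to 9.11 in ILK-K5 libraries. Words shared with other genes make up 12.7% of Gbp7, 11.8% of Igtp and 3.75% of Gbp3.

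The plot of fold changes shows the 34 genes tested with their errors. Oasl2 and Trim30a were called in all 6 fits that left out 1 library, Gbp3 in 4, Parp14 in 3 and Ifit1 and Oas1a in 2. Without control library 2 there were 3 genes called and Ifit1, Oas1a and Parp14 were lost, at adjusted p-values of at most 0.128, 0.189 and 0.0825. Without ILK-K5 library 1 there were 4, and without ILK-K5 library 2 or 3 there were 2, Gbp3 being lost as well (adjusted p of at most 0.0723). Without control library 1, by contrast, 9 were called, with Rsad2, Gbp7 and Irgm1 added. The share of all genes tested that was called higher moved too, from 2.93% in the main fit. It was 3.15%, 1.89% and 3.42% without control library 1, 2 or 3, and 1.64%, 1.36% and 1.50% without ILK-K5 library 1, 2 or 3.

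**Figure D2:**
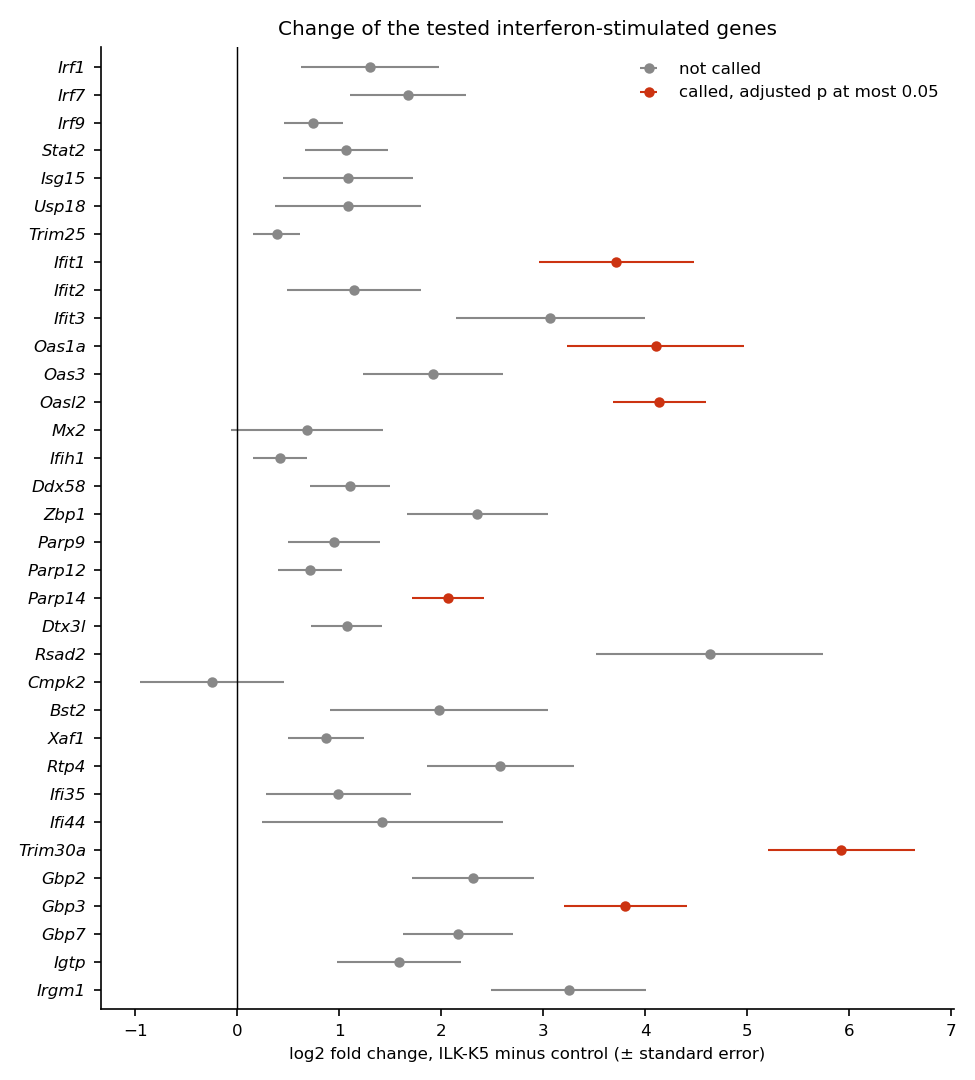
Log2 fold change of ILK-K5 minus control on the log2(normalized count + 1) scale for the 34 interferon-stimulated genes tested, with the standard error from limma as bars and the 6 called genes in red. All points but Cmpk2 lie right of 0, and Trim30a lies farthest at 5.92.

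Between genes, levels were compared per length as FPKM. Trim25 led in control libraries with 14.01 ± 0.687 FPKM (SD, n = 3), followed by Parp12 with 3.59 ± 0.932, Ifih1 with 3.19 ± 0.429 and Xaf1 with 3.09 ± 1.07. Parp12, Ifih1 and Xaf1 did not differ beyond their spread. Next came Irf9 with 2.29 ± 0.148, Stat2 with 2.21 ± 0.994, Dtx3l with 2.02 ± 0.754 and Igtp with 1.83 ± 1.19 FPKM, again within each other's spread. In ILK-K5 libraries Trim25 led with 18.3 ± 1.73 FPKM. The called genes had low levels in control, Trim30a at 0.0485 ± 0.0574, Gbp3 at 0.137 ± 0.0731, Oas1a at 0.201 ± 0.182, Oasl2 at 0.215 ± 0.0534, Ifit1 at 0.349 ± 0.330 and Parp14 at 0.769 ± 0.287 FPKM. In ILK-K5 libraries the same genes had 3.39 ± 0.180, 2.17 ± 0.217, 3.38 ± 1.27, 4.18 ± 0.783, 3.86 ± 1.45 and 3.11 ± 0.231 FPKM in that order, beside 3.85 ± 0.0517 for Irf9. Within the ILK-K5 group the highest value fell in library 2 for 21 of the 39 genes, in library 1 for 12 and in library 3 for 6.

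**Figure D3:**
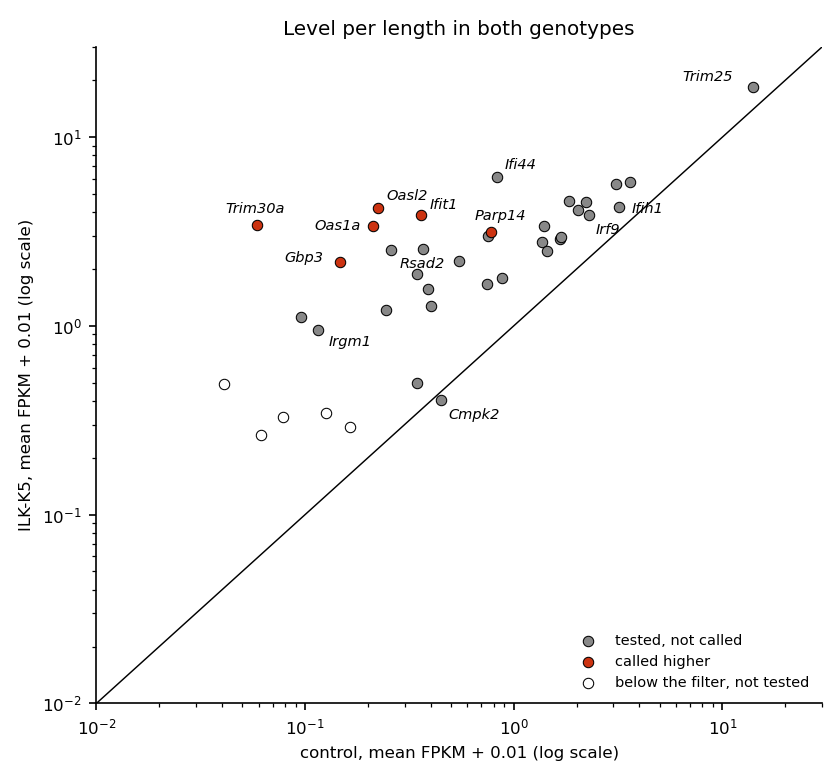
Mean FPKM + 0.01 in control against ILK-K5 libraries on log axes for the 39 interferon-stimulated genes, with the diagonal marking equal levels, called genes in red and genes below the filter in white. The called genes lie well above the diagonal at low control levels, while Trim25, the most abundant, lies just above it and Cmpk2 just below.

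A second list held 85 other interferon-stimulated genes drawn up by name, of which 81 had a row (all but Mnda, Gbp5, Gbp6 and Gbp10) and 67 were tested. Of these, 18 were called higher and 0 lower, beside 2.93% and 0.599% of all genes. edgeR and DESeq2 called 16 and 27 higher and 0 lower, beside 2.58% and 3.81% of all genes higher. At an unadjusted p below 0.05 there were 33, all higher, beside 8.18% of all genes, and the median log2 fold change of the 67 was 1.24. Leaving out control library 2 gave 10 calls and leaving out any 1 ILK-K5 library gave 6. Of all genes, 1.89% and 1.36% to 1.64% were called higher in those fits. Control means below 10 normalized counts put 18 of the 67 past the filter through ILK-K5 alone, and 10 of the 18 called genes were among these. Of the 49 with a control mean of at least 10, 8 were called, beside 1.43% of all such genes, and their median was 0.68.

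Of the 8 genes tested from the Ifi200 family on chromosome 1, which includes the DNA sensor Aim2, 6 were called, beside 2.93% of all genes tested. The family was not a group of its own in the planned list, and words shared between its genes were not counted. Ifi207 had 0, 3.04 and 9.43 normalized counts in control and 681, 327 and 228 in ILK-K5 libraries 1, 2 and 3 (log2 fold change 6.74, adjusted p = 0.00222, limma). With every control value below 10, Ifi207 passed the filter only through its ILK-K5 level. Mndal, Ifi211, Ifi204 and Ifi205 rose by 5.41, 5.31, 5.13 and 4.49 on the log2 scale and Aim2 by 2.98. In all 6 genes every ILK-K5 library was above every control library, whereas Ifi203 and Ifi209 overlapped and were not called (log2 fold changes 0.47 and 1.10). Ciita, the master regulator of MHC class II, rose by 5.59, Lgals3bp, whose protein binds galectins, by 4.61, and the GTPases Gbp9 and Ifi47 by 4.32 and 3.13. Slfn2 and Epsti1 had at most 3 reads in each control library and were at least 16.7-fold and 7.26-fold higher over that floor. Ly6e, a membrane protein of lymphoid and other cells, rose by 2.96, the growth regulator Slfn5 by 2.30 and Cd274, which encodes PD-L1, by 2.29. The remaining 3 called genes had smaller changes, from 1.67 for Samhd1 to 2.07 for Cxcl9. Calls held in all 6 fits without 1 library for Ifi204, Ifi207, Lgals3bp, Lgals9 and Ciita, while Ifi211 and Gbp9 held in 1. Ciita and the Ifi200 genes are also expressed by macrophages and other antigen-presenting cells.

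Of 5 other Irf genes tested, Irf4 and Irf8 were called higher, beside 2.93% of all genes tested. Among the sensors and adaptors, 10 had a row (all but Mb21d1) and 3 of these were called higher. The 3 sensors and Irf8 passed the filter only through their ILK-K5 level. Of the 7 sensors and adaptors with a control mean of at least 10, 0 were called by limma, beside 1.43% of all such genes. Their median log2 fold change was 0.31. Irf8, a factor of the myeloid lineage, had 0.965, 1.52 and 0 normalized counts in control and 137, 108 and 99.4 in ILK-K5 libraries, a mean at least 35.7-fold higher over the floor of 3 reads per control library (adjusted p = 0.00107, limma). Irf4 rose by a log2 fold change of 2.42 (adjusted p = 0.0287). Tlr7 and Tlr9, endosomal receptors for RNA and DNA, had 0 to 16.7 and 0 to 2.89 normalized counts in control and 58.4 to 245 and 66.0 to 91.8 in ILK-K5 libraries (adjusted p = 0.0290 and 0.00415). Tmem173, the gene of STING, had 1.93 to 18.2 in control and 88.8 to 134 in ILK-K5 libraries (log2 fold change 3.85, adjusted p = 0.0182). Irf3, Mavs and Tbk1, found in most cells, did not pass, at 0.28, -0.66 and 0.46 on the log2 scale. Of the inhibitors Socs1, Socs3, Ptpn2 and Irf2, Socs1 was below the filter and 0 of the other 3 passed by limma or edgeR, while DESeq2 called Socs3 (log2 fold change 2.38, adjusted p = 0.112 by limma), the 1 of the 3 with an unadjusted p below 0.05. Calls lost without 1 library were Irf4, Tlr7, Tlr9 and Tmem173, which passed in 1, 2, 5 and 3 of those 6 fits, whereas Irf8 passed in all 6.

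**Figure D4:**
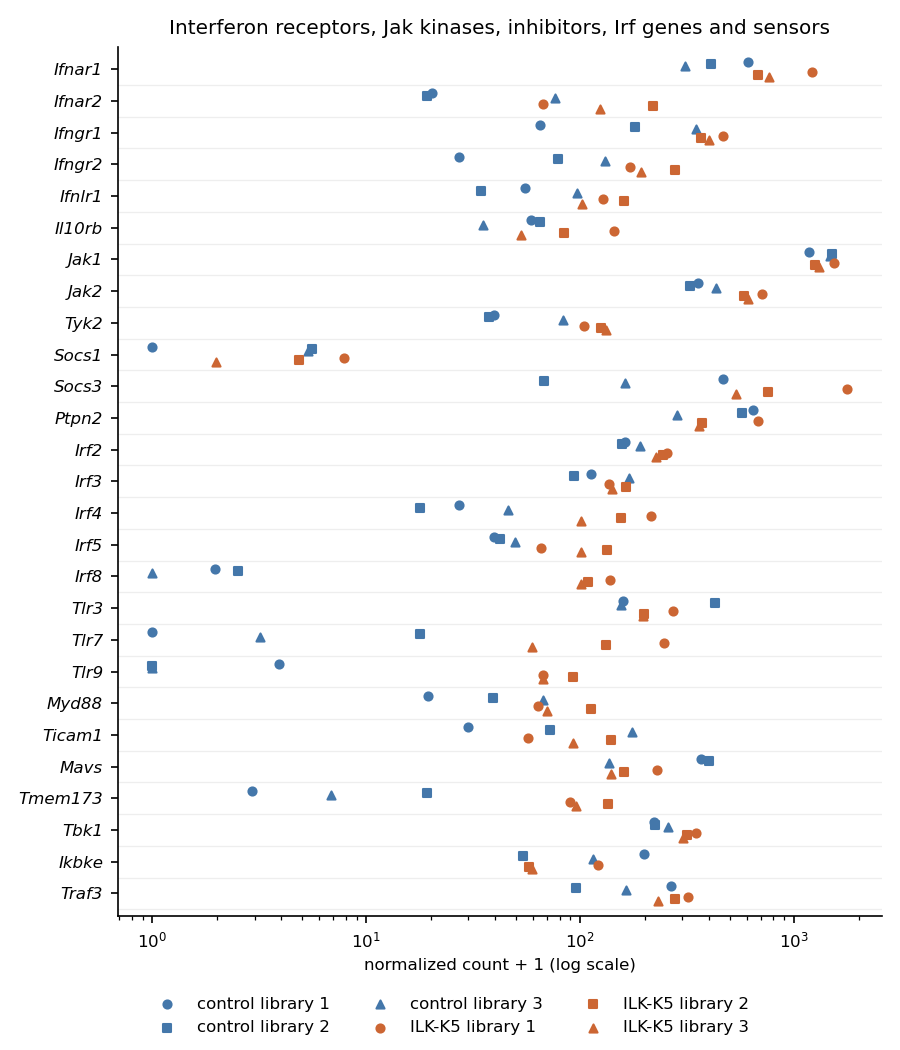
Normalized count + 1 on a log axis for the interferon receptors, Jak kinases, inhibitors, other Irf genes and sensors, with control libraries in blue and ILK-K5 libraries in orange. Irf8, Tlr9 and Tmem173 show wide gaps between genotypes, while Jak1, Irf3 and Mavs overlap.

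Markers of leukocytes moved with the interferon-stimulated genes, and their part in these differences was not tested. All 7 general leukocyte markers were called higher, beside 2.93% of all genes tested. Their summed level was 43.4 to 133 normalized counts in control and 4270.4 to 5882 in ILK-K5 libraries. Of 13 macrophage markers 12 were tested and all 12 were called higher, with sums of 379 to 622 in control and 12936 to 16803 in ILK-K5 libraries. Through their ILK-K5 level alone, 3 of the 7 and 6 of the 12 passed the filter. The other 4 and 6 had a control mean of at least 10 and were all called higher, beside 1.43% of all such genes. Csf1r, the receptor of the macrophage growth factor, had 58.9, 15.2 and 44.3 in control and 2747, 2390.1 and 1793 in ILK-K5 libraries. C1qa, a complement gene of macrophages, had 1.93, 0 and 0 and 63.8, 61.7 and 38.0, and Fcgr1 was at 0 in all 3 control libraries and had 77.4 to 119 in ILK-K5. Markers of Langerhans and dendritic cells summed to 83.6 to 107 in control and 971 to 1630.3 in ILK-K5 libraries, mostly through Itgax, the 1 called of 5 tested, while Cd207, the gene of langerin, had 7.72, 42.6 and 68.2 and 425, 133 and 108 and was not called by limma (adjusted p = 0.148). In that list 3 genes had an unadjusted p below 0.05, edgeR called 1 and DESeq2 3, namely Itgax, Cd207 and Xcr1.

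Other leukocytes had lower sums. The list of plasmacytoid dendritic cells, the main producers of type I interferon, summed to 10.2 to 22.2 normalized counts in control and 8.48 to 37.6 in ILK-K5 libraries, with Siglech at 3.86, 0 and 3.63 and 9.11, 1.54 and 4.87 and 0 of 1 tested gene called by limma, edgeR or DESeq2 (unadjusted p below 0.05 in 0). T and NK cell markers summed to 207 to 342 in control and 582 to 781 in ILK-K5 libraries, with Cd4 the 1 called of 6 tested and Cd3e at 2.89, 6.08 and 49.3 and 44.4, 57.1 and 89.6 (adjusted p = 0.255). Of these 6 genes 5 had an unadjusted p below 0.05, edgeR called 1 and DESeq2 3, with Cd3g and Nkg7 added, while Cd3d was at -0.47 on the log2 scale. Markers of B cells, neutrophils and mast cells summed to at most 65.6, 113 and 2.90 in any library. The B cell marker Cd79a was at 0 in ILK-K5 libraries, but others of its list were not. Ms4a1 had 46.3, 16.7 and 16.7 in control and 22.8, 15.4 and 8.77 in ILK-K5 libraries. Cd79b had 0.965, 1.52 and 2.18 in control and 2.28, 8.48 and 1.95 in ILK-K5 libraries. Ly6g and Elane of the neutrophil list and Cpa3 of the mast cell list were at 0 in ILK-K5 libraries. The neutrophil sums nevertheless separated, at 23.9 to 56.9 in control and 63.8 to 113 in ILK-K5 libraries, through Csf3r and Cxcr2 (log2 fold changes 2.69 and 1.26). Both had an unadjusted p below 0.05, while limma and edgeR called 0 and DESeq2 called Csf3r.

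Outside the leukocytes few markers of other cell types were called. Pecam1, Col1a1 and Dct, markers of endothelium, fibroblasts and melanocytes, had log2 fold changes of 0.68, 0.85 and 0.60. The other of 2 endothelial genes tested was at -2.02. Fibroblast sums separated, at 678 to 736 in control and 1060 to 1407 in ILK-K5 libraries, and all 3 genes tested were above 0. In these 3 lists 0 genes passed by limma or edgeR, and DESeq2 called Tek lower and Tyrp1 higher. An unadjusted p below 0.05 was found for 1 gene in each list. This gene was lower in the endothelial list and higher in the fibroblast and melanocyte lists. In the list of bulge SCs 1 of 7 passed, Cd34, and Krt15 was at -1.16 on the log2 scale (adjusted p = 0.552). Krt14 of the basal layer had 3306 to 8868 normalized counts in control and 8241 to 11365 in ILK-K5 libraries (adjusted p = 0.366), and 0 of 5 basal genes passed by limma, edgeR or DESeq2, with 1 at an unadjusted p below 0.05. The other 4 basal genes, Krt5, Itgb4, Trp63 and Col17a1, had log2 fold changes of -0.22, 0.054, -0.19 and -0.34, and the median of the 5 was -0.19. Of the differentiated layers 1 of 4 tested passed, Lor, which was lower.

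**Figure D5:**
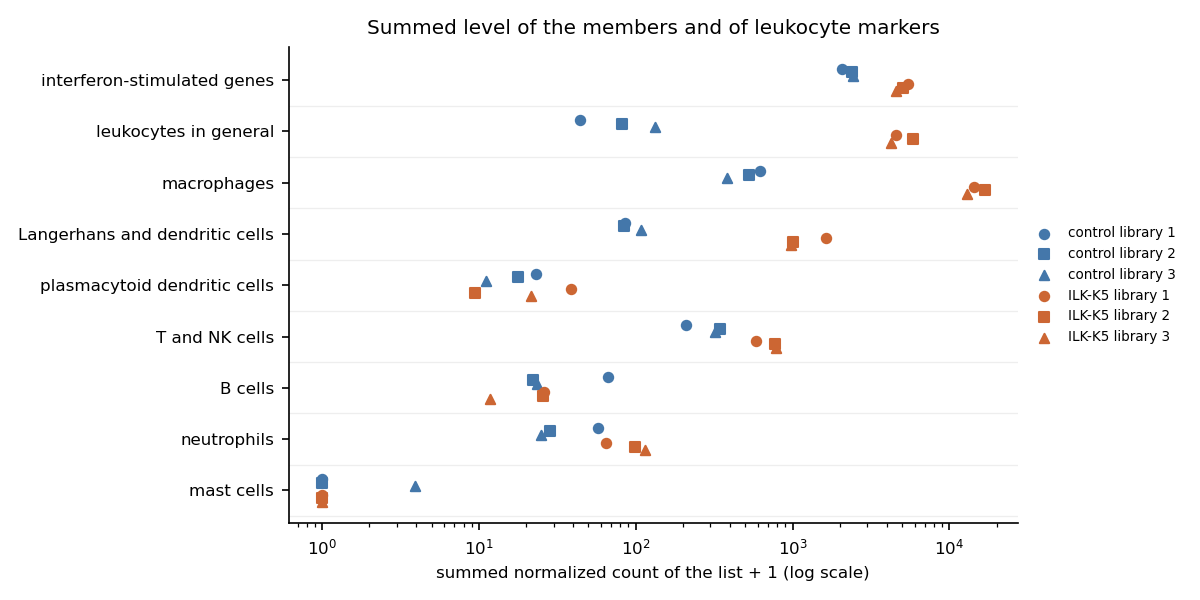
Normalized counts summed over each list + 1 on a log axis, for the 39 interferon-stimulated genes and 8 lists of leukocyte markers, 1 point per library. General leukocyte and macrophage markers separate the genotypes far more widely than the interferon-stimulated genes do, while the sums of plasmacytoid dendritic cell and B cell markers overlap.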

How the data were processed

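RNA of sorted bulge SCs was amplified with a NuGEN Ovation V2 kit and sequenced from Nextera XT libraries, which do not keep the strand. Per the labels and the study's methods, the authors trimmed reads with flexbar, removed ribosomal RNA reads and aligned the rest to GRCm38; the submitters' processing notes name TopHat2 2.0.14, Bowtie2 2.2.4 and DESeq2 1.6.3. The counting program is not given in the sources used here. The authors deposited a normalized count per gene (a signal equal to reads divided by 1 size factor per library) and an FPKM table. FPKM was a constant multiple of the normalized count within each gene, so the tables are not independent. The deposited lists of fold changes and p-values of the authors' own comparison were not used.

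Ensembl identifiers were matched to GENCODE M21 symbols (42107 of 43274). The 39 genes, and the lists of interferon ligands, receptors, Jak kinases, inhibitors, Irf genes, sensors, other interferon-stimulated genes and cell type markers, were chosen with earlier results of these data known. Values per library are given for called genes, the 8 genes with the highest control FPKM, and Irf1, Irf7, Irf9, Stat2, Isg15 and Usp18, and ranges for the rest; of the pathway genes the 20 called with the largest changes, the receptors and the kinases are named. Genes whose mean reached 10 normalized counts were tested two-sided with limma 3.58.1 in R 4.3.3 on log2(normalized count + 1), with a trend and without covariates, and called at a Benjamini-Hochberg adjusted p of at most 0.05 over 16368 genes. Fold changes are on that scale, which understates the change of low genes. The procedure was tested on simulated data. Whole reads were recovered for 100% of values within a tolerance of 0.01. On them edgeR 4.0.16 called 422 of 16368 genes higher and DESeq2 1.42.0 called 780 of 20450. A floor of 3 reads per library, which covers counting error only, was used for fold bounds. An exact permutation test of 3 against 3 libraries cannot go below 0.1 and was not used. Promoters were RefSeq sequences, build GRCm38.p6. Tables and plots used Python 3.11.15 with pandas 2.3.3 and matplotlib 3.10.9.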

Additional observations from a re-analysis of the deposited data

How the results depend on the processing

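With 3 libraries per genotype, the count of 6 interferon-stimulated genes called higher by limma depended on the processing, while the count called lower was 0 under all alternatives run. It was 3 with a minimum mean of 50 normalized counts, which left 18 genes, and 13 with DESeq2, which tested 38 and added Ifit3, Dhx58, Zbp1, Rtp4, Gbp2, Gbp7 and Irgm1. Of all genes, 3.04% and 3.81% were called higher with these 2 settings. The other changes of pseudocount, filter, scaling, table or test, and replicates 2 and 3 alone, gave 4 to 8. They called 1.49% to 3.39% of all genes higher. Leaving out 1 library gave 2 to 9 calls for these genes and 6 to 20 for the other interferon-stimulated genes, of which 18 were called. Those fits called 1.36% to 3.42% of all genes higher, against 2.93% in the main fit. The median log2 fold change of 1.50 ranged from 1.14, without control library 1, to 1.75. No filter and DESeq2 moved the median of all genes to -0.10 and -0.17. Over single genes and alternatives, 1045 values kept their direction and side of the limit, 33 newly passed it, 98 no longer passed it and 8 turned sign, in 3 genes, none of them called. Over the fits without 1 library, the Cmpk2 log2 fold change ranged from -0.51 to 0.27, the Ifi44 log2 fold change from -0.18 to 2.29 and the Jak1 log2 fold change from -0.13 to 0.047, the last with 0.015 under quantile normalization and 0.0097 under TMM scaling. The cause was not tested.

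With the replicate number as a block, 12 of these genes and 28 of the other interferon-stimulated genes were called higher, against 848 of all genes (5.18%). Zbp1, Rsad2, Rtp4, Gbp2, Gbp7 and Irgm1 were added and no call was lost. With a term that set replicate 1 apart from replicates 2 and 3, 11 and 29 were called, against 846 of all genes (5.17%). Each replicate has its own number in the labels, which do not give this grouping. The deviations of same-numbered libraries from their group means correlated at 0.529, 0.020 and 0.307. ILK-K5 libraries 1 and 3 correlated best with the control library of the same number, and ILK-K5 library 2 with control library 3, at 0.498. With 3 libraries per genotype these values cannot decide whether same-numbered libraries were paired. The labels do not say what the numbers mark. Low counts limit what can be read for Oas2, Oasl1, Mx1, Dhx58 and Iigp1, where 1 read was worth 0.726 to 1.52 normalized counts.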

Other observations

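Some interferon-stimulated genes were set apart by 1 library, and these are given as values chosen after they were seen. Ifi44 had 1025, 39.3 and 32.1 normalized counts in ILK-K5 libraries 1, 2 and 3. Ly6a, the gene of Sca-1, had 3.86, 213 and 239 in control libraries 1, 2 and 3 and 212, 189.7 and 165 in ILK-K5 libraries. Rsad2 had 29.9 in control library 1 and at most 1.52 in the other controls. Bst2, the gene of tetherin, had 0, 7.60 and 4.35 in control and 14.8, 29.3 and 4.87 in ILK-K5 libraries. Over all 39 genes the highest ILK-K5 library was library 2 for 21, library 1 for 12 and library 3 for 6. The control libraries were not ranked in this way.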
